A study of Mus musculus with 17 samples.

Results

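The genes described here are 8 transcription factors and cofactors that set up and carry out the skeletal muscle program: Pax3, Pax7 and Eya2, which act upstream, the 4 myogenic regulatory factors Myf5, Myod1, Myog and Myf6, and Mef2c, their partner. They were chosen by gene symbol, and all 8 have an entry in a deposited table of read counts for 23420 genes. The series measured RNA by sequencing in 17 libraries of mouse cells, all of them from C57BL/6 knock-in mice with the R172H allele, which encodes a mutant of p53, a tumour suppressor. It holds 4 second-generation tumour lines (TL2), grown from tumours that first-generation lines formed after injection, 6 first-generation tumour lines (TL1), grown from tumours of mesenchymal stem cells, and 3 cultures of bone marrow mesenchymal stem cells (MSC). It also holds 2 clones of first-generation tumour line cells with p53 knocked out (KO clones) and 2 control clones that keep the mutant p53 (Mut clones). There was no wild-type p53 group, and no group received a treatment. Tumour lines are named here by generation and by a number from 1 to 3 in parentheses in their titles, with a letter where a generation holds a number more than once.

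Skeletal muscle is made in steps. Pax3 and Pax7 are paired-box factors of embryonic muscle progenitors and of satellite cells, the stem cells of adult muscle, and Eya2 is a coactivator of homeodomain proteins in those progenitors. Myf5 and Myod1 commit cells to the muscle lineage, Myog drives them to leave the cell cycle and differentiate, and Myf6 acts both in determination and in mature fibres. The 4 regulatory factors are basic helix-loop-helix proteins that pair with E-proteins and bind E-boxes, and Mef2c is a MADS-box factor that works with them on muscle genes. Myod1 and Myog are also the standard markers of tumours with muscle features.

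Library totals ran from 12215025 to 15962341 counts, and levels are given in CPM, counts relative to a common total after TMM scaling of the library sizes. Trp53, the gene knocked out, had 80.8 and 89.6 CPM in KO clones and 358 and 280 CPM in Mut clones, so transcripts of the gene remained in the KO clones at a lower level (log2 change −1.89, SE 0.226, adjusted p = 0.00259). The labels do not say which tumour line each clone came from. Over 13262 genes, both KO clones were most like TL1 2b (r = 0.932 and 0.936) and least like TL2 3 (r = 0.837 and 0.830), while both Mut clones were most like TL2 3 (r = 0.962 and 0.951) and least like TL1 3a (r = 0.822 and 0.820). The clones of the 2 kinds therefore differed in the line they resembled, and loss of p53 and line of origin cannot be told apart in any result on the clones. Because the libraries are bulk RNA, fewer cells of a type and less RNA per cell cannot be told apart either. Tumour lines were kept over agar in medium with leukaemia inhibitory factor, MSC in a medium of their own, so culture and group coincide. Markers of blood and endothelial cells were low everywhere: the 9 blood markers summed to at most 33.0 CPM and the 5 endothelial ones to at most 3.44 CPM in any library.

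**Figure D1:**
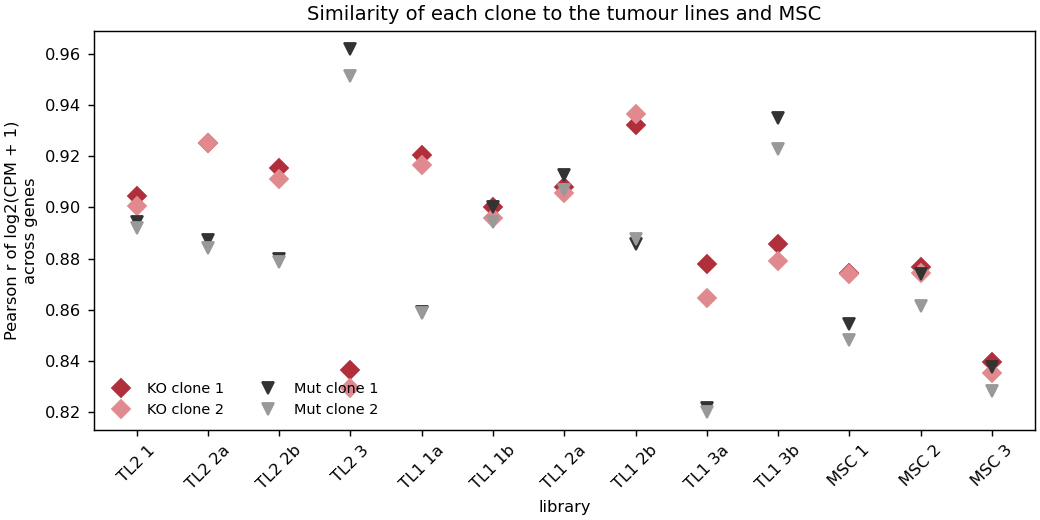
Pearson correlation of log2(CPM + 1) across 13262 genes (vertical axis) of each clone with each tumour line and MSC library (horizontal axis). KO clones (diamonds) are highest at TL1 2b and lowest at TL2 3, and Mut clones (triangles) are highest at TL2 3 and lowest at TL1 3a.

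The stretch upstream of Myog is shown because Myog is the factor whose level relative to Myod1 sets the KO clones and TL1 3a apart from other tumour lines below. The sequence is from RefSeq and covers the 250 bases before the start of Myog, chr1:134289754-134290003, plus strand of GRCm38.p6, which corresponds to the mm10 build named in the submitters' processing notes. Capitals mark E-boxes, written CANNTG on either strand, and the MEF3 element TCAGGTTTC, a motif of muscle gene promoters.
Myog upstream region: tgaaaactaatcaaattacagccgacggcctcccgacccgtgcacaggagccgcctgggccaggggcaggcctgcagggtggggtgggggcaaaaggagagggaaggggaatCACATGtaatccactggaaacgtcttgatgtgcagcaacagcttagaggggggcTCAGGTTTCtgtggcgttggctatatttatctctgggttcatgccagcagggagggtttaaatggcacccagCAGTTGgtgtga
The 2 E-boxes in it, CAGTTG from −12 to −7 and CACATG from −138 to −133 relative to the start site, do not overlap the MEF3 element from −84 to −76. Of 32851 promoter windows of the same length in the RefSeq table, 66.2% held at least 1 E-box and 0.387% held the MEF3 letters. The MEF2 consensus had no match in these letters of the Myog window and matched 2.92% of all windows. A search for the letters of a consensus misses sites that depart from it, so the lack of a match does not show that a MEF2 site is absent. A match is a description of the letters only. RefSeq windows were at hand for 4 of the 8 genes, Myog, Myf5, Pax7 and Mef2c.

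**Figure D2:**
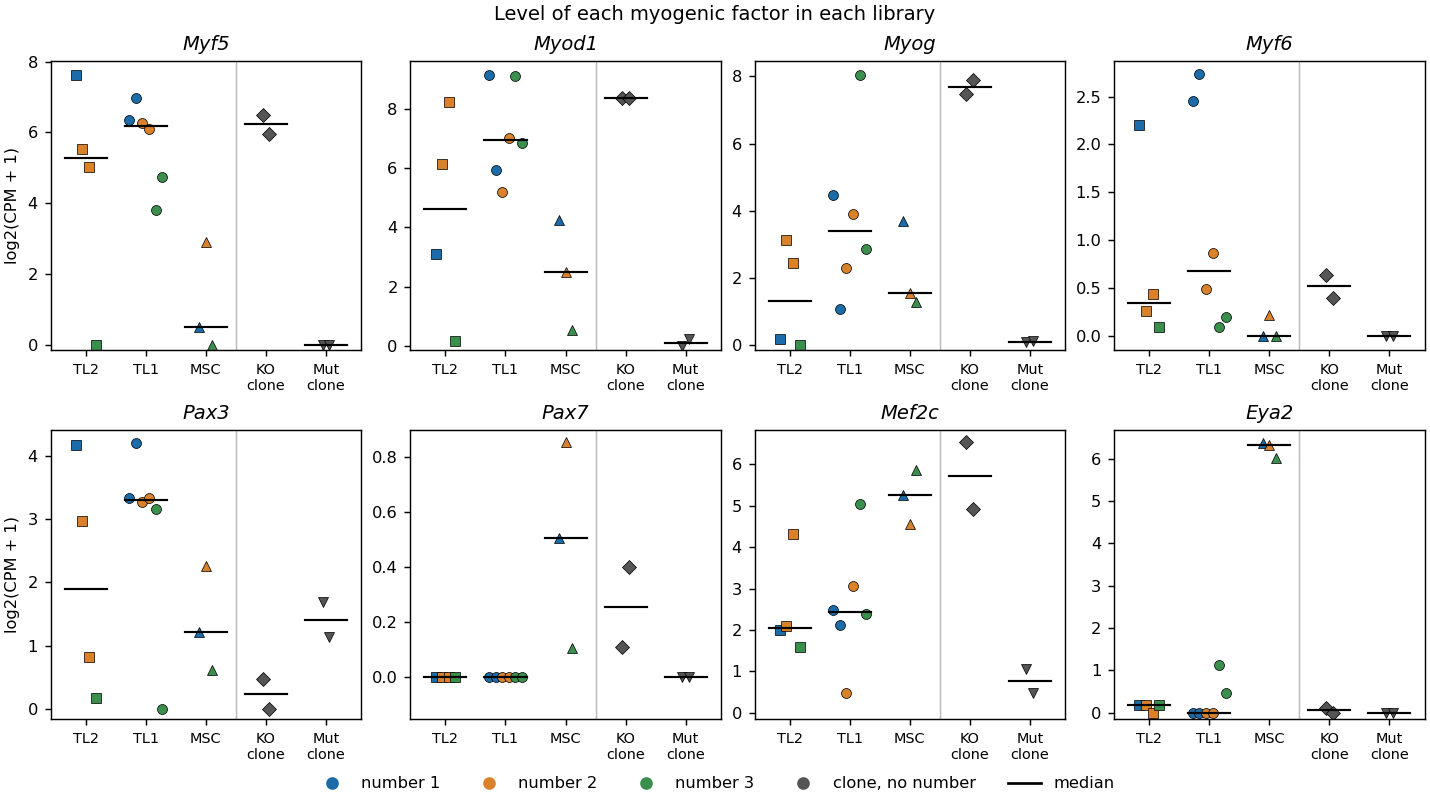
Level of each of the 8 genes in each library, as log2(CPM + 1), with 1 point a library, colour for the number in the title of tumour lines and MSC, and a black line at the median of each group. Eya2 is at 63.8 CPM or more in MSC and at 1.18 CPM or less in every other library, Myf5, Myod1 and Myog are high in both KO clones and near 0 in both Mut clones, and Myf6 is highest in the 3 tumour lines of number 1.

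Set against MSC, the tumour lines had almost no Eya2. Myf5 and Myod1 averaged 66.0 and 184 CPM in tumour lines and 2.32 and 7.76 CPM in MSC, but neither passed the test with edgeR. Of the 7 genes that could be tested, 1 was called with edgeR's quasi-likelihood test at an adjusted p under 0.05, against 8.65% of all 13262 genes tested (3.86% higher and 4.79% lower). That gene was Eya2, which passed the filter on low counts through MSC alone. It could only be called lower, so the share of members called is a description. DESeq2 called 5 of the 7 on the same libraries, Myf5, Myod1 and Myf6 higher and Eya2 and Mef2c lower.

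Eya2 had 0.131, 0.129, 0 and 0.129 CPM in the TL2 libraries 1, 2a, 2b and 3. In TL1 it had a lowest, median and highest value of 0, 0 and 1.18 CPM, and in MSC 81.5, 78.6 and 63.8 CPM. Every MSC library was far above every tumour line, and 5 of the 10 tumour lines held no Eya2 count at all. The log2 change was −8.74 (SE 0.949, adjusted p = 0.000245). As Eya2 passed the filter on low counts through MSC alone, the test could only call it lower. Of the 28 Eya2 counts in tumour lines, 17 came from TL1 3a; without that library the log2 change was −9.61, and without the lines of number 3 it was −11.30, with adjusted p from 1.94e-07 to 0.0101 over all alternatives tried. Levels without overlap in the lower direction were found for 7.53% of all genes tested.

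Pax7 followed the same order at a very low level. It had no count in any of the 10 tumour lines, which allows up to 0.0206 CPM over the group, and 0.418, 0.808 and 0.0759 CPM in MSC, from 16 counts. With a floor of 3 counts over the group, Pax7 was at least 20.7-fold lower in tumour lines, a bound that covers counting error only. It fell below the filter on low counts and was not tested; with no filter Pax7 was called lower (log2 change −5.64, SE 1.02, adjusted p = 0.0363 with edgeR).

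Pax3 was present in most tumour lines. It had 16.9, 6.86, 0.771 and 0.129 CPM in TL2 libraries 1, 2a, 2b and 3, a lowest, median and highest value of 0, 8.84 and 17.3 CPM in TL1, and 1.34, 3.80 and 0.531 CPM in MSC. The highest levels were in TL1 1b and TL2 1, while TL1 3b and TL2 3 were at or near 0, so the groups overlapped (log2 change 1.99, SE 1.39, adjusted p = 0.384).

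Myf5, the earliest of the 4 regulatory factors to appear in the embryo, had 197, 45.6, 31.5 and 0 CPM in TL2 libraries 1, 2a, 2b and 3. In TL1 the lowest, median and highest values were 12.9, 71.1 and 123 CPM, and in MSC it had 0.418, 6.54 and 0 CPM. All 6 TL1 lines and 3 of the 4 TL2 lines were above every MSC library, and TL2 3 alone held no Myf5 count. The log2 change was 4.88 (SE 1.77, adjusted p = 0.103). It was called without TL2 3 (log2 change 5.04, adjusted p = 0.0367) and without the lines of number 3 (adjusted p = 0.0205), and over all alternatives tried the adjusted p ran from 0.0140, with DESeq2, to 0.493.

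Myod1, the factor able to turn fibroblasts into muscle cells, had 7.55, 69.6, 303 and 0.129 CPM in TL2 libraries 1, 2a, 2b and 3. In TL1 the lowest, median and highest values were 36.1, 123 and 572 CPM, and in MSC it had 18.2, 4.68 and 0.456 CPM. TL1 1a and TL1 3a stood highest, all TL1 lines lay above MSC, and TL2 1 and TL2 3 lay within or below the MSC range. The log2 change was 4.34 (SE 1.80, adjusted p = 0.149), with adjusted p from 0.0151, with DESeq2, to 0.425 over the alternatives.

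Myog, the differentiation factor, was not called either. It had 0.131, 7.77, 4.41 and 0 CPM in TL2 libraries 1, 2a, 2b and 3, a lowest, median and highest value of 1.10, 10.2 and 265 CPM in TL1, and 12.05, 1.94 and 1.44 CPM in MSC. The 265 CPM belonged to TL1 3a, more than 10 times the next tumour line, TL1 1a at 21.3 CPM. The log2 change of 1.35 (SE 1.64, adjusted p = 0.630) changed sign in 3 of 26 alternatives.

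Myf6 had 3.61, 0.194, 0.350 and 0.0643 CPM in TL2 libraries 1, 2a, 2b and 3. In TL1 the lowest, median and highest values were 0.0692, 0.614 and 5.65 CPM, and in MSC 1 of the 3 libraries held 2 counts (0.162 CPM). From 231 counts in tumour lines and 2 in MSC, the ratio was 29.8 with a 95% counting interval of 8.16 to 248. Myf6 passed the filter on low counts through tumour lines alone and could only be called higher. The change was not called with edgeR (adjusted p = 0.152), and was called with DESeq2 (log2 change 4.73, adjusted p = 0.0358); over the alternatives the adjusted p ran from 0.0358 to 0.409.

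Mef2c averaged lower in tumour lines, without passing the test. It had 3.02, 3.24, 18.98 and 1.99 CPM in TL2 libraries 1, 2a, 2b and 3, a lowest, median and highest value of 0.401, 4.41 and 32.2 CPM in TL1, and 37.1, 22.7 and 56.9 CPM in MSC. All TL2 lines were below all MSC libraries, and among TL1 lines only TL1 3a, at 32.2 CPM, reached the MSC range. The log2 change was −2.30 (SE 0.858, adjusted p = 0.111). It was called without TL1 3a (−2.87, adjusted p = 0.0213), without TL2 2b (−2.95, adjusted p = 0.0488) and without the lines of number 3 (−2.77, adjusted p = 0.0322), and over all alternatives the adjusted p ran from 0.0155 to 0.384.

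The calls on the related lists stand beside 8.65% of all 13262 genes tested (3.86% higher and 4.79% lower). Of 41 early differentiation targets, genes of the contractile apparatus and the neuromuscular junction that the factors switch on, 38 were tested, 35 had a positive log2 change and the median was 1.67, beside 7477 positive of 13262 and a median of 0.0989 over all genes tested. A single one, Chrnb1, a subunit of the muscle acetylcholine receptor, was called higher, averaging 89.9 CPM in tumour lines and 6.91 CPM in MSC (log2 change 3.73, SE 0.764, adjusted p = 0.0113). Myom1, a protein of the sarcomere's M-band, was called lower, with 2.82 CPM in tumour lines and 11.1 CPM in MSC (log2 change −2.16, adjusted p = 0.0204). With DESeq2, 9 targets were called higher and 1 lower, and with the number in the titles as a block in the fit 4 higher and 2 lower. Without TL2 3, 4 targets were called higher. Neither Chrnb1 nor Myom1 was called without MSC 1 (adjusted p = 0.0669 and 0.115) or without MSC 3 (0.0801 and 0.127).

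Among 22 tested upstream regulators and cofactors, 1 was called higher and 2 lower. Pitx1, a homeobox gene of the hindlimb, had at most 0.129 CPM in tumour lines and 73.3, 60.3 and 50.5 CPM in MSC (log2 change −9.85, SE 0.463, adjusted p = 3.25e-07). It passed the filter on low counts through MSC alone and could only be called lower. Six5 was also lower (−1.37, adjusted p = 0.0245) and Tead4 higher (2.05, adjusted p = 0.0355). Of 27 inhibitors, Id2, which binds E-proteins away from the factors, was called higher (2.57, adjusted p = 0.0400), and Snai2 and Zeb2, zinc-finger repressors, were called lower (−1.09 and −0.99). Pitx1 kept its call whichever library was left out. Six5 lost it without MSC 1 or MSC 3 (adjusted p = 0.116 and 0.146). Without MSC 1, MSC 2 or MSC 3 in turn, the calls of Tead4 (adjusted p = 0.116 to 0.176) and Id2 (0.129 to 0.163) were lost. Tead4 also lost its call without TL1 2a, TL2 2a, TL2 2b or TL2 3 (0.0506 to 0.0543), and Id2 without TL1 1a, TL1 2a, TL1 2b, TL2 2a or TL2 2b (0.0525 to 0.0553). Snai2 lost its call without MSC 1 or MSC 3 (0.186 and 0.254), without TL1 1a, TL1 2a, TL1 2b, TL1 3a, TL2 1 or TL2 2b (0.0517 to 0.0739), and with the number as a block (0.0572). Zeb2 lost its call without MSC 1, MSC 2 or MSC 3 (0.169, 0.137 and 0.164) and without TL1 1a, TL1 1b, TL1 3b, TL2 1, TL2 2a or TL2 2b (0.0544 to 0.0749).

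Of 9 tested fusion genes 0 were called higher and 1 lower, Dock1 (−1.23, adjusted p = 0.0191; 0.122 without MSC 1 and 0.0922 without MSC 3). Of 16 tested satellite cell markers 1 was called higher, the laminin receptor subunit Itga7, with 322 CPM in tumour lines and 27.8 CPM in MSC (3.38, adjusted p = 0.0374; 0.0570 to 0.176 without each MSC library in turn and 0.0524 to 0.0548 without TL1 1b, TL2 1 or TL2 2b). With the number as a block, 1 fusion gene and 2 satellite cell markers were called higher, and DESeq2 called 1 and 4. The 3 E-proteins Tcf3, Tcf4 and Tcf12, the obligate partners of the factors, summed to 341 to 587 CPM in tumour lines and 437 to 519 CPM in MSC, and 0 of them were called. Smooth muscle markers summed to 814 to 2249 CPM in tumour lines and 6693 to 10121 CPM in MSC, with 4 of 8 called lower. Mesenchymal stromal markers summed to 964 to 2150 CPM in tumour lines and 4288 to 8310 CPM in MSC, with 3 of 11 called lower, and 6 lower and 1 higher with the number as a block. The part of these cell-type differences in the results above was not tested.

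Among the 10 tumour lines, the number in the title went with the level of Myf6 and, without passing the test, of Myf5. An F test of the 3 numbers, with generation in the model, called 1 of the 7 genes tested, against 1.86% of 14100 genes. Myf6 had 3.61, 4.49 and 5.65 CPM in the lines of number 1, 0.194, 0.350, 0.401 and 0.826 CPM in those of number 2, and 0.0643, 0.0692 and 0.149 CPM in those of number 3. The 3 numbers did not overlap. The fitted means spanned 5.51 on the log2 scale (adjusted p = 0.0102), and the call held in all 15 alternatives, with adjusted p from 4.00e-10 to 0.0480. The level in the lines of number 3 rests on 4 counts, against 25 in those of number 2 and 202 in those of number 1.

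Myf5, which lies 5.92 kb from Myf6 on chromosome 10 and on the same minus strand, had the same order. It had 80.9, 123 and 197 CPM in the lines of number 1, 31.5, 45.6, 66.9 and 75.3 CPM in those of number 2, and 0, 12.9 and 25.8 CPM in those of number 3. These ranges did not overlap either, which held for 2 of the 7 genes and for 1.6% of all genes tested, but the fitted span of 3.87 was not called (adjusted p = 0.205, and 0.134 to 0.353 over the alternatives). Myf5 lies at 107482908 to 107486927 and Myf6 at 107492848 to 107494723 of chromosome 10 in GRCm38.p6.

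The other members tested had ranges that overlapped between numbers, and none was called. Myod1 was high in a line of each number, at 572 CPM in TL1 1a, 303 CPM in TL2 2b and 550 CPM in TL1 3a, and its span of 1.55 was not called (adjusted p = 0.922). Pax3 had 9.06, 16.9 and 17.3 CPM in the lines of number 1, 0.771 to 9.09 CPM in those of number 2 and 0 to 7.96 CPM in those of number 3 (adjusted p = 0.436). Its means of 14.4, 6.33 and 2.70 CPM had the order of Myf5 and Myf6. Eya2 reached its highest tumour-line values in TL1 3a and TL1 3b, 1.18 and 0.373 CPM (adjusted p = 0.208, close to the 0.205 of Myf5).

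Of the genes on the related lists, the test by number called Cdkn1c, a cell cycle inhibitor, Cd34, a surface protein of satellite and blood stem cells, and Tfap2a, a neural crest factor. Cdkn1c had 14.2 to 144 CPM in the 4 lines of number 2 and at most 0.0657 CPM in the other tumour lines (adjusted p = 0.00329). Cd34 had 0.280 to 1.14 CPM in the lines of number 2, 161 to 329 CPM in those of number 1 and 91.1 to 876 CPM in those of number 3 (adjusted p = 0.00947). Tfap2a had 12.9 to 28.9 CPM in the lines of number 2 and at most 3.60 CPM in the others (adjusted p = 0.0215; 0.0542 without TL1 1b and 0.0753 without TL1 2b). In the KO clones Cdkn1c was at 0, Tfap2a at 0.236 and 0.159 CPM and Cd34 at 44.1 and 0.319 CPM. In the Mut clones Cdkn1c was at 0, Tfap2a at 0.145 and 0.0796 CPM and Cd34 at 348 and 643 CPM. On Cdkn1c and Tfap2a both kinds of clone were apart from the lines of number 2. On Cd34, KO clone 2 lay within the range of the lines of number 2, and KO clone 1 and both Mut clones lay above it. TL1 2b was the line whose profile over all genes the KO clones came closest to.

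Between the generations no difference passed the test. With edgeR, 0 of the 7 genes and 0% of 13262 genes were called in TL2 against TL1, and 0 of the 7 had generations that did not overlap, against 0.0452% of all genes higher and 0.0905% lower. At an unadjusted p under 0.05 there was 1 of the 7, Myog, and DESeq2 and limma-voom also called 0 of the 7. Myog averaged 3.08 CPM in TL2 and 52.0 CPM in TL1, with all 4 TL2 values below the TL1 median of 10.2 CPM (log2 change −4.10, SE 1.75, adjusted p = 1.00). TL1 3a held 3828 of the 4460 Myog counts in TL1. Myod1 averaged 95.1 CPM in TL2 and 244 CPM in TL1 (log2 change −1.36, SE 1.37), and Myf5 68.6 CPM in TL2 and 64.2 CPM in TL1 (0.12, SE 1.23).

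The early differentiation targets had the sign of Myog. All 38 tested targets had a negative log2 change in TL2 against TL1, with a median of −2.24, beside 6258 negative of 13262 genes and a median of 0.0173, and 0 were called by edgeR or by DESeq2. Their summed level was 89.3 to 920 CPM in TL2 and 448 to 4472 CPM in TL1, and the highest value was that of TL1 3a. Without TL1 3a, 35 of 37 were negative and the median was −1.25.

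In Myf5, Myod1 and Myog, TL2 3 was below both other lines of its number. It held 0 counts of Myf5 and Myog and 2 of Myod1. The TL1 lines of the same number, TL1 3a and TL1 3b, had 12.9 and 25.8 CPM of Myf5, 550 and 115 CPM of Myod1, and 265 and 6.27 CPM of Myog. For Pax3, with 2 counts in TL2 3 and none in TL1 3b, and for Myf6, with 1 count in TL2 3 and 1 and 2 in TL1 3a and TL1 3b, TL2 3 did not stand apart.

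The proportions of the 4 regulatory factors differed from line to line even where their sum was similar. For this, levels were divided by the length of each gene's merged exons and are given in CPM per kb, so that genes can be compared. Myod1 was the most abundant of the 4 in both KO clones, in 2 TL2 lines and in 4 TL1 lines, and Myf5 in TL2 1, TL1 1b and TL1 2a. In TL2 1, Myf5 made up 93.1% of the summed level of the 4 factors, 102 CPM per kb, and Myod1 3.99%. TL2 2b had the opposite makeup, with 89.9% Myod1 and 8.33% Myf5 of a larger sum, 181 CPM per kb. TL1 2b, with a sum closer to that of TL2 1 at 112 CPM per kb, held 62.4% Myod1 and 28.7% Myf5. Myf6 made up 2.81% in TL2 1, 4.61% in TL1 1b and 0.978% in TL1 1a, the 3 lines of number 1. In the other tumour lines it made up at most 0.584%, leaving out TL2 3, where the share of 42.4% rests on 1 Myf6 count.

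The ratio of Myog to Myod1 per kb, a differentiation factor over a commitment factor, separated the KO clones and TL1 3a from the other tumour lines with enough counts, but not from MSC. Whether it follows the state of the cells was not tested. It was 0.680 and 0.892 in the KO clones (95% exact counting intervals 0.646 to 0.716 and 0.851 to 0.935) and 0.5995 in TL1 3a (0.577 to 0.623). In the other 8 tumour lines with enough counts it ran from 0.0181 in TL2 2b to 0.139 in TL2 2a. TL1 1a, with 307 CPM per kb of Myod1, slightly more than the 296 of TL1 3a, had 14.3 CPM per kb of Myog against 177 in TL1 3a. In MSC the ratio was 0.826, 0.515 and 3.94, at much lower levels of both genes (Myod1 at most 9.76 CPM per kb). It was not computed for TL2 3 and the Mut clones, in which the 4 factors summed to at most 0.139 CPM per kb. These intervals cover counting error only.

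**Figure D3:**
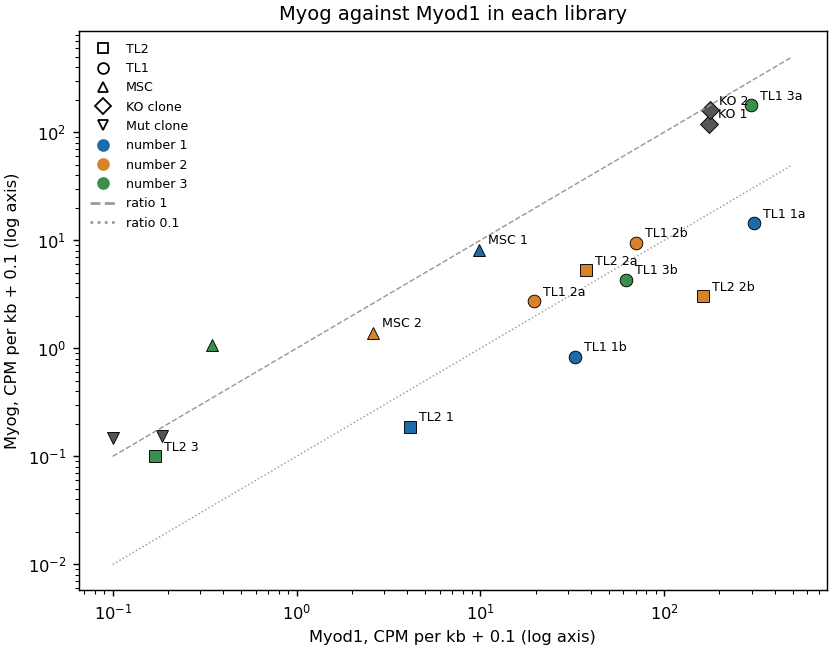
Myog (vertical) against Myod1 (horizontal), both in CPM per kb plus 0.1 on log axes, with 1 point a library; the dashed line marks a ratio of 1 and the dotted line a ratio of 0.1. The KO clones and TL1 3a lie close to the dashed line at more than 100 CPM per kb of both genes, and TL1 1a and TL2 2b lie at or below the dotted line at similar Myod1; the unlabelled points at the lower left are MSC 3 and the Mut clones.

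The clones showed the sharpest contrast. In the KO clones Myf5, Myod1, Myog and Mef2c were all higher than in the Mut clones, in which the first 3 were all but absent. Of the 5 genes tested 4 were called, all higher, against 26.1% of 12238 genes (14.2% higher and 12% lower). Myf5, Myod1 and Myog, with 0, 2 and 2 counts in the Mut clones, passed the filter on low counts through the KO clones alone. They could only be called higher, so the share of members called is a description. List genes below with almost no count in the Mut clones, or in the KO clones, are limited in the same way, each to its own direction.

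Myf5 had 89.3 and 61.0 CPM in KO clones and 0 counts in both Mut clones, so it was at least 661-fold higher (adjusted p = 0.000244). Myod1 had 327 and 332 CPM in the KO clones, against 0 and 0.159 CPM in Mut clones, from 8321 counts against 2. That ratio was 4343 with a counting interval of 1202 to 35866 (adjusted p = 9.43e-05). The Mut clones held next to nothing of either gene, and the KO clones were closer to each other in Myod1 than in Myf5.

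Myog had 179 and 238 CPM in KO clones and 0.0725 and 0.0796 CPM in Mut clones, 1 count in each. The ratio was 2742 with a counting interval of 759 to 22644 (adjusted p = 6.34e-05). Mef2c had 91.5 and 29.1 CPM in KO clones and 1.09 and 0.398 CPM in Mut clones (log2 change 6.32, SE 0.836, adjusted p = 0.00757). Mef2c varied more between the KO clones than the others did, its log2 change was 5.27 without KO clone 1, 6.93 without KO clone 2, 7.23 without Mut clone 1 and 5.78 without Mut clone 2, and in the last case the adjusted p was 0.0511 (3.21e-19 to 0.0511 over all alternatives). When the spread was taken from all 17 libraries, 2 of the 5 genes were called: Myf5 had adjusted p = 0.0566 and Myog 0.0636, with Myod1 at 0.0482 and Mef2c at 0.0471.

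Pax3, of the progenitors, averaged lower in the KO clones, and the other 3 genes had too few counts to be tested. Pax3 had 0.394 and 0 CPM in KO clones and 2.25 and 1.19 CPM in Mut clones, a log2 change of −3.05 that was not called (SE 1.06, adjusted p = 0.0773). Pax7 had 5 counts in the KO clones and 0 in the Mut clones, Eya2 1 and 0, and Myf6 11 and 0 (0.551 and 0.319 CPM in the KO clones, at least 3.83-fold higher), and these 3 fell below the filter on low counts. With no filter their log2 changes were positive and not called (edgeR, adjusted p = 0.225 for Pax7, 0.579 for Eya2 and 0.0761 for Myf6). No overlap between the clones was common at this number of libraries: 34.6% of all genes tested were higher in both KO clones than in both Mut clones and 35.1% lower in both.

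Set among all groups, the KO clones were within the range of the TL1 lines for Myf5, Myod1 and Myog. By median, Myod1 ran 330 CPM in KO clones, 123 in TL1, 38.6 in TL2, 4.68 in MSC and 0.0796 in Mut clones, and in that order each neighbouring pair overlapped except MSC and Mut clones. Myog ran 208, 10.2, 2.27, 1.94 and 0.0760 CPM in the same order of groups, again with a gap only between MSC and Mut clones. Myf5 ran 75.1, 71.1, 38.5, 0.418 and 0 CPM in that order, with every neighbouring pair overlapping. Mef2c ran 60.3 CPM in KO clones, 37.1 in MSC, 4.41 in TL1, 3.13 in TL2 and 0.743 in Mut clones, with a gap only between TL2 and Mut clones. The Mut clones lay below every TL1 line for Myf5, Myod1 and Myog, and for Mef2c KO clone 1, at 91.5 CPM, lay above every tumour line. Also below every TL1 line for Myf5, Myod1 and Myog was TL2 3, the line both Mut clones were most like. It had 0 CPM of Myf5, 0.129 CPM of Myod1 and 0 CPM of Myog.

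The early differentiation targets were higher in the same clones as the regulatory factors. All 40 that were tested, of 41 listed, were called higher in the KO clones, with a median log2 change of 8.59, or 8.23 with the 8 genes that had no count in the Mut clones at their lower bound, beside a median of 0.00496 over all genes. Those 8, and others with next to no count in the Mut clones, such as Myl1 and Tnnt3 with 1 count each, passed the filter through the KO clones alone. They could only be called higher, so the count of 40 is a description. They summed to 6393 and 7032 CPM in the KO clones, above the highest tumour line, TL1 3a at 4472 CPM, and to 65.3 and 67.4 CPM in Mut clones. Acta1, skeletal muscle actin, averaged 1322 CPM in KO clones and 0.496 CPM in Mut clones (log2 change 11.37, SE 0.389, adjusted p = 5.34e-05). Chrna1, the alpha subunit of the muscle acetylcholine receptor, averaged 1094 CPM in KO clones and 3.42 CPM in Mut clones (8.33, SE 0.353). The thin-filament gene Tnnc1 averaged 424 CPM in KO clones and 0.735 in Mut clones, and the fast myosin light chain Mylpf 287 in KO clones and 0.931 in Mut clones.

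Myh3, embryonic myosin, had 6489 counts in the KO clones and 1 in the Mut clones, and Mybph, a myosin-binding protein, 3174 and 1. Not all targets are specific to muscle: the cell cycle inhibitor Cdkn1a, also a target of p53, averaged 145 CPM in KO clones and 12.7 CPM in Mut clones (3.53, SE 0.239), and Rb1 36.8 CPM in KO clones and 18.8 in Mut clones (0.98, SE 0.258); these 2 were named after their values were seen. With the spread from all 17 libraries, 24 of the targets were called, and Myh3 and Mybph were not (adjusted p = 0.0584 and 0.0636).

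The fusion machinery was split. Of 10 tested fusion genes 5 were called higher and 1 lower, beside 14.2% higher and 12% lower of all 12238 genes tested. Mymk, myomaker, the membrane protein that muscle cells need to fuse, averaged 175 CPM in KO clones and had no count in the Mut clones, at least 1535-fold higher (adjusted p = 0.000132). Mymx, myomixer, its partner, averaged 11.9 CPM and was also at 0 in the Mut clones (at least 104-fold higher). Cdh15, M-cadherin, averaged 1144 CPM in KO clones and 0.232 CPM in Mut clones (log2 change 12.25, SE 0.385). Jam2 and Cdh2 were higher too (4.73 and 1.61), and Jam3 lower (−1.22, and not called under any setting that left out a clone). With the spread from all 17 libraries, 3 were called higher and 0 lower, and Jam2 (adjusted p = 0.0691), Cdh2 (0.328) and Jam3 (0.239) lost their calls.

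Of 15 tested satellite cell markers 11 were called higher and 0 lower, with a median of 3.92. Of all 12238 genes tested, 14.2% were called higher and 12% lower. Myf5, Cdh15 and Des on the list of satellite cell markers are counted among the groups above as well. Itga7 averaged 972 CPM in KO clones and 21.5 CPM in Mut clones (5.52, SE 0.372), Notch3 60.9 in KO clones and 0.648 in Mut clones, and the adhesion molecule Ncam1 413 in KO clones and 73.9 in Mut clones. With the spread from all 17 libraries, 5 of these markers were called; Itga7 and Ncam1 kept their calls, and Notch3 and Megf10 lost theirs (adjusted p = 0.0913 and 0.0819).

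**Figure D4:**
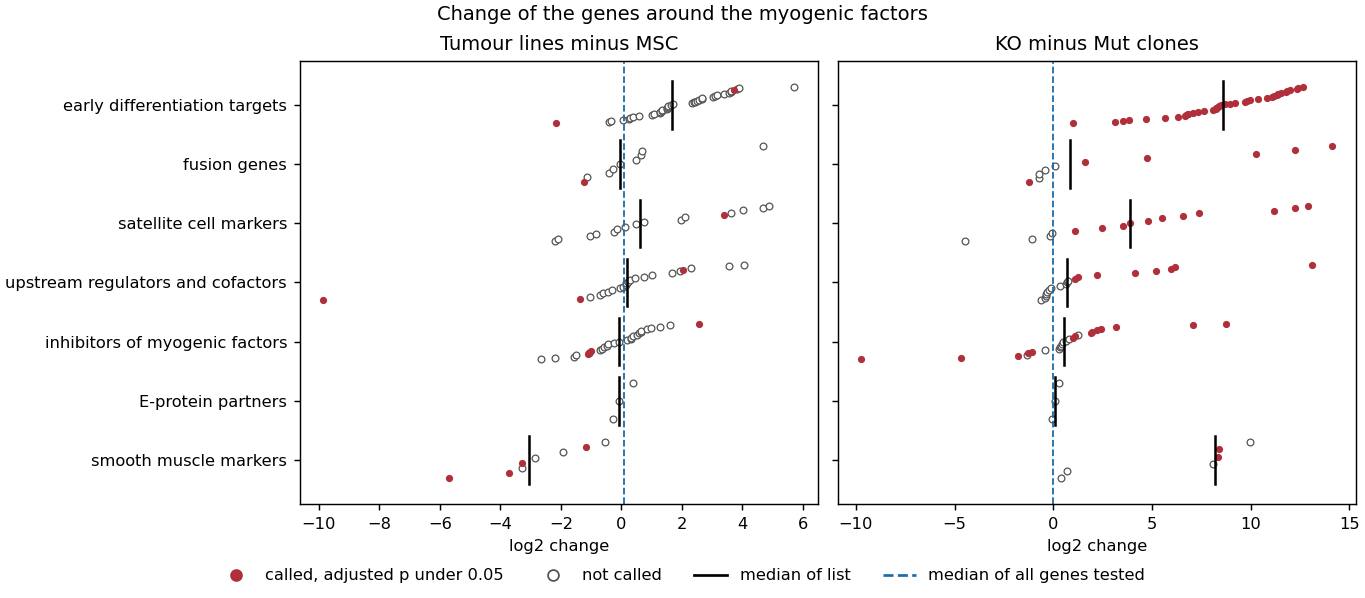
Log2 change of each tested gene (points) on 7 lists of genes around the myogenic factors, for tumour lines minus MSC (left) and KO minus Mut clones (right), red where called; a black bar marks the median of a list and the dashed line that of all genes tested. In the clones all 40 early differentiation targets are red and above 0, while the 3 E-proteins stay near 0 in both panels; fitted changes of genes without counts in a group are drawn as fitted.

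Upstream regulators were called higher in 8 of 19 cases and lower in 0, beside 14.2% higher and 12% lower of all 12238 genes tested. Smarcd3, the chromatin remodelling subunit that accompanies Myod1, averaged 102 CPM in KO clones and 5.77 CPM in Mut clones (4.16, SE 0.405). Eya1, a relative of Eya2, averaged 30.2 in KO clones and 6.51 in Mut clones (2.23, SE 0.284). The number called here fell to between 3 and 5 without Mut clone 1, Mut clone 2 or KO clone 2, and to 2 with the spread from all 17 libraries, where Eya1 was not called (adjusted p = 0.0666).

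The inhibitors moved in both directions, with 9 of 24 called higher and 5 lower, beside 14.2% higher and 12% lower of all 12238 genes tested. Twist2, which blocks Myod1 activity, had 2 counts in the KO clones and 2013 in the Mut clones, a ratio of 964 in the lower direction with a counting interval of 267 to 7968. Twist1 was also lower, at 27.2 CPM in KO clones and 96.1 CPM in Mut clones (−1.80, SE 0.220). Hes1, the Notch target, averaged 130 CPM in KO clones and 14.3 CPM in Mut clones (3.20, SE 0.305), and Id2 31.7 in KO clones and 6.81 in Mut clones (2.23, SE 0.285). Hes6, called higher as well (1.97), is known as an antagonist of Hes1 and a promoter of muscle differentiation rather than an inhibitor. With the spread from all 17 libraries, 2 inhibitors were called higher and 2 lower, and Id2 and Hes6 lost their calls (adjusted p = 0.130 and 0.0728). With a clone left out, 2 to 3 were called lower. The 3 E-proteins were not called, and they summed to 485 and 489 CPM in KO clones and 449 and 465 CPM in Mut clones.

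Smooth muscle markers were also more abundant in the KO clones. They summed to 3351 and 9783 CPM in KO clones and 694 and 934 CPM in Mut clones. All 6 tested had a positive log2 change and 2 were called, beside 26.1% of all 12238 genes tested. The 2 were Acta2, with 2437 and 6660 CPM in KO clones and 1.59 and 25.2 CPM in Mut clones, and Tagln. The Acta2 call was lost without KO clone 1 or KO clone 2 (adjusted p = 0.0732 and 0.0855) and that of Tagln without Mut clone 1 or Mut clone 2 (0.0581 and 0.0769). Mesenchymal stromal markers were called higher in 3 and lower in 2 of 10 cases, and summed to 1785 and 1989 CPM in KO clones and 665 and 937 CPM in Mut clones. The part of these markers in the results on the clones was not tested.

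Across the 17 libraries, the genes whose profile was most like that of Myog were muscle structural and fusion genes, and those most like the other members were more mixed. Likeness was the Pearson correlation of log2(CPM + 1) among 10630 genes, given as a description because libraries of a group share their source. Closest to Myog were Mylpf (r = 0.977), Tnnt3, Myh3, Mymk and Mybph, and among the closest to Myod1 were Cdh15 (r = 0.935), Des, Purb and Strip2. Among the closest to Myf5 were Popdc3 (r = 0.956), Rapsn, which clusters acetylcholine receptors, Cadm1 and Ttc9. Mef2c was closest to Plce1 (r = 0.934), Anks6, Igf1, Tmtc2 and Pccb.

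Eya2 was closest to Pitx1 (r = 0.993), Ndn, Fbn2, Rspo2 and Rps4y2. Eya2 and Pitx1 share the gap between MSC and all other libraries, and Spearman's rho between them was 0.364. Myf6 was closest to B3gnt7 (r = 0.931, rho = 0.473), Tk2, Fgfbp1, Edc4 and Cnot1. Pax3 was closest to Tyw3 (r = 0.860), Atrn, Zfp213, Mtx3 and Cog8.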

How the data were processed

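Single-end reads of 60 bases came from fragmented total RNA of cells within 20 passages, per the labels' protocols. Per the submitters' processing notes, the mm10 build was used with TopHat2 2.0.10, cutadapt, DESeq2 1.6.3 and HTSeq 0.6.1p1; their order, the annotation and the strand setting were not given in the sources used. The authors deposited raw counts as whole numbers by gene symbol. In the table, 4 columns match no sample and were not used.

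Groups came from the sample titles. The labels do not tie libraries to separate animals or cultures, so p-values cover only how these libraries vary, and part of that may be technical. No pair of libraries within a group differed by as little as sampling noise (smallest chi-square per degree of freedom 30.5).

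Counts were tested with edgeR 4.0.16 in R 4.3.3 (TMM, filtering by expression, robust quasi-likelihood test, Benjamini-Hochberg over all genes tested, called at an adjusted p under 0.05), in 4 comparisons: the mean of TL2 and TL1 minus MSC and TL2 minus TL1 in a fit of 13 libraries, KO minus Mut clones in a fit of 4, and an F test of the title number among 10 tumour lines. Changes against 0 counts are bounds from 3 counts over the group. Gene lengths are merged exons of GENCODE vM21, positions are RefSeq GRCm38.p6. Eya2 overlaps a lincRNA and a pseudogene on the other strand, whose reads cannot be told apart without strand. Alternatives were other size factors, no filter, DESeq2 1.42.0, limma-voom 3.58.1, each library left out, the number as a block, lines summed per number, each generation alone, all 17 libraries, and, chosen after seeing the data, the lines of each number left out.

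The genes, their 12 related lists and the tests were chosen with earlier results of these data known. Named list genes are up to 6 called genes per list and comparison in order of p. Likeness names the 5 closest genes with at least 10 CPM in a library. Some genes these rules name are not reported here.

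Pairing by title number was checked on deviations from group means. TL2 and TL1 lines of a number deviated together (r = 0.432, 0.334 and 0.493), and MSC did not (r between −0.0526 and 0.238). The main fits of tumour lines against MSC and of TL2 against TL1 held no block for the number. Their SEs and p-values treat lines of a number as independent, and the block was used as an alternative only.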

Additional observations from a re-analysis of the deposited data

Results flagged for a closer look

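In 3 of 14 groups of 4 to 10 libraries checked, a library stood far from the rest of its group relative to the group's range; chance gives about 5% of such groups. Pax3 was at 0 CPM in TL1 3b, against 7.96 to 17.3 CPM in the other TL1 lines. Eya2 was at 0 CPM in TL2 2b, against 0.129 to 0.131 CPM in the other TL2 lines, which is a difference between 0 and 2 counts. Myf6 was at 3.61 CPM in TL2 1, against 0.0643 to 0.350 CPM in the other TL2 lines, and the TL1 lines of number 1 were high as well.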

How the results depend on the processing

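In tumour lines against MSC, 1 of the members was called; 2 were called with no filter, with limma-voom, with the lines summed per number, and without TL2 2b, TL1 3a or TL2 3 (1 to 2 over all libraries left out), 3 without the lines of number 3 and 5 with DESeq2. In the clones, 2 were called in the fit of all 17 libraries, against 4. Signs of uncalled changes turned as follows. Myog in tumour lines against MSC: −0.24 by limma-voom, −0.70 with TL2 alone and −1.09 without the lines of number 2. TL2 minus TL1, limma-voom: Eya2 0.25, Myf5 −2.42 and Mef2c 0.029. With a library left out: Eya2 ran from −1.60 to 0.42 and Mef2c from −1.67 to 0.78, both above 0 without TL1 3a; Myf5 ran from −1.32 (without TL2 1) to 0.50, with −0.10 without TL1 3a and −0.07 without TL1 3b; Trp53 ran from −0.0073 (without TL2 1) to 0.26. With the number as a replicate block: Myf5 −0.93 and Mef2c 0.084. The block changed no call among the members, at 0 called in TL2 minus TL1 and 1 in tumour lines against MSC. The cause of these shifts was not tested.

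Genes called in tumour lines against MSC numbered 1147 (512 higher and 635 lower; by library totals alone 680 and 547), 2208 by DESeq2, 732 with TL1 alone, 546 with TL2 alone, 2053 without number 3, and 349, 687 and 304 without MSC 1, 2 and 3. In the clones they numbered 3200, 820 in the fit of 17 and 1347 to 1755 with a clone left out, where the lone clone is assumed to vary like the others. By line number they numbered 262, 413 with no filter, 2032 by DESeq2 and 29 to 364 with a line left out. Library totals alone moved the median of all genes in the clones to −0.13. 6 of the 7 likeness leaders changed with rank correlation.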

Other observations

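Many markers of the other cell types listed beside the muscle genes fell below the filter on low counts. Their calls stand beside 8.65% of all genes tested in tumour lines against MSC and 26.1% in the clones. Isl1, Gata4 and Kit below passed the filter through the group where they were high, so each could be called in 1 direction only. Of 3 cardiac markers tested in tumour lines against MSC, 1 was called, Isl1, with 201 counts in tumour lines and 0 in MSC (at least 17.3-fold higher); the call was lost without any of the 3 MSC libraries in turn (adjusted p = 0.112 to 0.164) and with most tumour lines left out. In the clones 1 of 4 was called, Gata4, with 1 count in KO clones and 271 in Mut clones, a ratio of 260 in the lower direction with a 95% counting interval of 46.2 to 10292; the call was lost without Mut clone 2, KO clone 1 or KO clone 2 (adjusted p = 0.0808, 0.140 and 0.127). Of the neural crest and melanocyte markers, edgeR called 0 of 5 in tumour lines against MSC and 0 of 3 in the clones. Of 4 blood markers 1 was called in tumour lines against MSC, Kit, a receptor of blood stem cells and melanocytes, with 1 count in tumour lines and 112 in MSC, a ratio of 434 in the lower direction with an interval of 76.3 to 17298. In the clones 1 of 2 was called, Csf1r, at 1.90 CPM in KO clones and 0.221 CPM in Mut clones; that call was lost with each clone left out (adjusted p = 0.0796 to 0.175). The 1 endothelial marker tested in tumour lines against MSC was not called, and 0 passed the filter on low counts in the clones.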
